A study of Mus musculus with 4 samples.

Results

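Open chromatin at 8 genes of ion channels, bicarbonate transport and carbonic anhydrases was followed in inguinal white adipose tissue (iWAT) by single-nucleus ATAC-seq, which marks accessible DNA through insertions of the Tn5 transposase. The genes were chosen by earlier results of the same data, which put *Kcnk3*, *Slc4a4* and *Otop1* on the beige side and *Car3* on the white side of the contrast between beige and white adipocytes. *Car2*, *Car4*, *Car5b* and *Slc4a7* complete the list. They are 8 of 17196 protein-coding genes with at least 1 peak, and 87 of 189598 peaks lie on their bodies or in the 2000 bases upstream. No peak of the 8 genes is shared with another gene.

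All mice were 8-week-old male C57BL/6 animals, and nuclei were sorted on a DNA dye alone, so no cell type was selected. Day 0 mice were kept at room temperature, 22 °C, and were sampled before any treatment. Cold mice were housed at 6.5 °C by the labels for 1, 3 or 7 days. CL mice received CL-316,243, an agonist of the β3-adrenergic receptor, at 1 mg/kg and room temperature for 1, 3 or 7 days. Each of these 7 groups held 3 mice, and none is described as given vehicle alone.

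KCNK3 (TASK-1) is a potassium leak channel of the plasma membrane that helps to set the resting potential, and in adipocytes the membrane potential tunes the response to adrenergic signals. SLC4A4 (NBCe1) carries sodium together with bicarbonate, SLC4A7 (NBCn1) does so without net charge, and OTOP1 is a proton channel. Carbonic anhydrases interconvert carbon dioxide and bicarbonate: CAR2 and CAR3 work in the cytosol, CAR4 on the outer cell surface and CAR5B in mitochondria. CAR3 has low enzymatic activity and is abundant in white fat and skeletal muscle.

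The sequences printed here are examples from the peaks described below, read from the mm10 genome on the strand of the gene and written 5′ to 3′. They are the *Kcnk3* peak with the only match to the estrogen-related receptor motif, the *Kcnk3* peak with the widest gap between cold and CL means in beige nuclei, the *Slc4a4* peak with the largest beige excess, the bases before the *Otop1* start in the peak that rose under both treatments, an intron peak of *Car3*, and the *Car5b* peak that fell at day 7 of CL. The *Otop1* sequence is a RefSeq promoter (GRCm38.p6), and 5 of the 8 genes matched an entry of that table. It is upstream of the RefSeq start at chr5:38277404 only, and lies inside the gene body used for the other *Otop1* values. Of the peaks these sequences come from, only those of *Otop1* and *Car5b* passed a test against day 0. Capitals mark a motif match.
Kcnk3 intron, chr5:30604829-30605128: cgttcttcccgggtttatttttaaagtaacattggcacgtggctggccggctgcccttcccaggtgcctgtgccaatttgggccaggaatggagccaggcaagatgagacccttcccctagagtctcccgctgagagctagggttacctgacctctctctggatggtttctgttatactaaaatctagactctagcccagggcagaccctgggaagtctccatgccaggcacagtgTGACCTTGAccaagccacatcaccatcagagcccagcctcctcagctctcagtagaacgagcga
Kcnk3 intron, chr5:30617821-30618120: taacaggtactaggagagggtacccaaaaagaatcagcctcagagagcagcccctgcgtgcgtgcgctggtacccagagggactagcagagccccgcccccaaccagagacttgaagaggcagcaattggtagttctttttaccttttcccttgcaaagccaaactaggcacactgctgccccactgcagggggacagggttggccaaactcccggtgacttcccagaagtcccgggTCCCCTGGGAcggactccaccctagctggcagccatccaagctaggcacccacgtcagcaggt
Slc4a4 intron, chr5:88927004-88927265: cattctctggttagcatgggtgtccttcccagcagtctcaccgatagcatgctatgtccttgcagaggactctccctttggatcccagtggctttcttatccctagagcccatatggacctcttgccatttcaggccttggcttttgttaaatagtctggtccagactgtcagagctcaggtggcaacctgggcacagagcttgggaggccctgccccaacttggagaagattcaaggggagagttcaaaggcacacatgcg
Otop1 upstream, chr5:38277154-38277403: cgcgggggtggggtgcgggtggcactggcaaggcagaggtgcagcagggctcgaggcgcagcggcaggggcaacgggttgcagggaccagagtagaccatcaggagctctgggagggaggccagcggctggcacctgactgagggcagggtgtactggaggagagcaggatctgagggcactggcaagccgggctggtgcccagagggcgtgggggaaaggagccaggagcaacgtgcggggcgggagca
Car3 intron, chr3:14867301-14867539: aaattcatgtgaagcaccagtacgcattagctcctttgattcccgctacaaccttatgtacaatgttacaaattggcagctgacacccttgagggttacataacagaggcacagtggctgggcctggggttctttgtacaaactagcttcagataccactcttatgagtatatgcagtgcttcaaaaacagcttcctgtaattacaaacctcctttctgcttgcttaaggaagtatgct
Car5b intron, chrX:164026823-164027122: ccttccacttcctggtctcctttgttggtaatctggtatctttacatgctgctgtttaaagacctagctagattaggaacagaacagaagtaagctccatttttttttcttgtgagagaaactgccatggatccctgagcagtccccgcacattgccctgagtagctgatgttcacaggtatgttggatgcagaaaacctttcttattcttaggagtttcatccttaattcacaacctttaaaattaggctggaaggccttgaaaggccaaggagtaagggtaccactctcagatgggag

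In all, 9 motifs were searched on both strands in the 300 bases around the middle of each peak. In peaks narrower than 300 bases this window reaches past the ends, and a match there was counted for the peak. TCAAGGTCA, the estrogen-related receptor motif, occurred in 1 of the 87 peaks, against 0.632% of all peaks. The match lies in the fifth *Kcnk3* peak, which had 8.18 ± 5.89 CPM (SD, n = 21 mice) in white and 36.4 ± 31.7 CPM (SD, n = 19) in beige nuclei, on the scale of single peaks described below. TGANTCA, the AP-1 motif, occurred in 10 of the 87 peaks, against 12.3% of all peaks, and 8 of the 10 belong to *Slc4a4*. The EBF motif occurred in 5 of the 87, against 3.95% of all peaks, and the MEF2 motif in 2, against 0.966%. The NFI motif occurred in 1, against 0.563%. The cAMP response element TGACGTCA, the C/EBP motif TTGCGCAA and the PPAR-RXR and NR3C motifs had no match in these windows and occurred in 0.478%, 0.139%, 0.0374% and 0.527% of all peaks. None of the 9 motifs matched in the *Otop1* bases shown, of which 70% are G or C.

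Per mouse, 1111 to 2021 nuclei and 1340376 to 6916698 matrix entries were deposited. White and beige nuclei together numbered 29 to 933 per mouse, and 29, 68 and 654 in the 3 mice at day 1 of CL. Beige nuclei reached the minimum of 10 in 19 of the 21 mice, with 12 to 107 nuclei each, and in only 1 mouse at day 1 of CL. Lymphocytes made up 58.2% to 90.8% of nuclei in 18 mice and 11.9% to 36.8% in 3 mice, 1 each at day 1 CL, day 3 CL and day 3 cold. Results are given without these 3 where that changes a call, except in white nuclei alone, which were not fitted without them. For the other genes of the families, only the number of calls without them is given. The same barcode string occurred in 2 or more mice for 4218 strings (26.8% of nuclei), in 18 of 210 pairs of mice. White and beige nuclei both carried the adipocyte markers (*Adipoq*, *Plin1*, *Pparg*, *Cidec*, *Lipe*), with summed means of 1610 and 1600 CPM. The beige markers (*Ucp1*, *Cidea*, *Dio2*, *Ppargc1a*, *Prdm16*) summed to 1080 CPM in beige and 621 CPM in white nuclei. The cluster deposited as VSMC went against its name, with 1590 CPM over skeletal muscle and 105 CPM over smooth muscle and pericyte markers.

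The 8 genes first differ in where they are open. For each mouse and cluster, the entries of a gene's peaks were summed and scaled to the total of that library (counts per 1000000, CPM), and long genes with many peaks have higher values. *Kcnk3* and *Otop1* were highest in beige nuclei and next in white nuclei. Beige nuclei had 337.5 ± 70.4 CPM (SD, n = 19) over *Kcnk3* and white nuclei 151.6 ± 32.6 CPM (SD, n = 21), and VSMC, next in order, had 47.1 ± 41.6 CPM (SD, n = 10). Over *Otop1*, beige nuclei had 106.5 ± 30.2 CPM, white nuclei 23.9 ± 11.6 CPM, and there were at most 7.91 CPM on average in each of the other 10 clusters. The ranges of beige and white mice did not overlap for *Otop1*, at 52.7 to 172 against 0 to 45.8 CPM.

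*Slc4a4* was open in many cell types. Its order was beige (627 ± 133 CPM), VSMC (509 ± 112 CPM), APC1, an adipocyte progenitor cluster (426 ± 146 CPM), and white nuclei (306 ± 42.2 CPM), and neighbours in this order overlapped between mice. CD4 T cells followed with 252 ± 52.7 CPM, and B cells were lowest at 19.2 ± 11.5 CPM. *Car3* was highest in white nuclei (431 ± 66.1 CPM), then in the VSMC cluster with its muscle markers (241 ± 128 CPM, n = 10) and in beige nuclei (174 ± 111 CPM), each overlapping the next, and the other clusters averaged 59.5 CPM or less.

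The other 4 genes had low values. *Car5b* was highest in white nuclei (74.7 ± 19.6 CPM), followed by endothelial (VEC, 48.1 ± 69 CPM) and beige nuclei (45.2 ± 32.4 CPM), which do not differ beyond their spread. *Car4*, with 1 peak, averaged 55 ± 82.5 CPM in VEC, 35 ± 16.6 CPM in beige nuclei, 29.8 ± 39.5 CPM in APC1 and 23.3 ± 10 CPM in white nuclei, with overlap between mice. *Car2* (50.6 ± 10.5 CPM) and *Slc4a7* (128 ± 18.8 CPM) were highest in B cells rather than in adipocytes. The cluster heat map shows *Otop1* at low values outside white and beige nuclei, *Kcnk3* with lower values in VSMC and APC2 that overlap with white nuclei, and *Slc4a4* and *Slc4a7* open in many clusters.

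**Figure D1:**
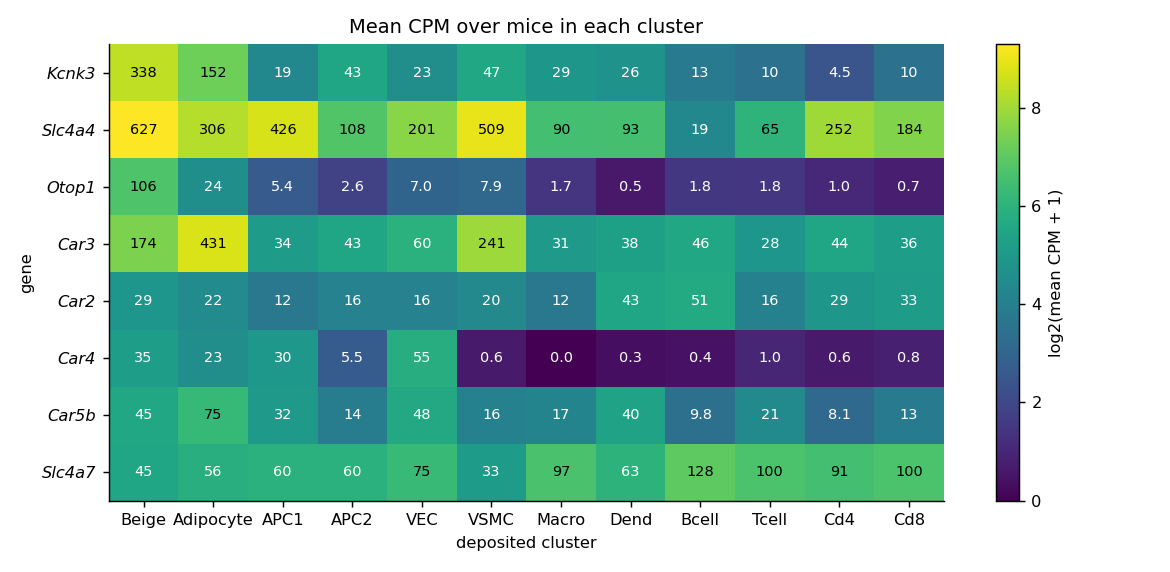
Heat map of mean CPM over mice (number in each cell; colour, log2 of mean CPM + 1) for the 8 genes (rows) in the 12 deposited clusters (columns). *Otop1* reaches 106 CPM in beige and 24 CPM in white nuclei and no more than 7.9 CPM elsewhere, whereas *Slc4a4* reaches at least 184 CPM in 7 clusters.

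Over the 12 cluster means, on log2(CPM + 1) and among 15016 genes, the genes most like *Kcnk3* were *Orm1* (Pearson r = 0.965), *Adora1* (0.961) and *Fam19a1* (0.960). Those most like *Otop1* were *Hadhb* (0.968), *Iars2* (0.954) and *Tmem135* (0.948), and those most like *Slc4a4* were *Dhrs7* (0.923), *Tacc2* (0.896) and *Adgra3* (0.890). *Car3* was most like *Lrtm1* (0.951), *Fdft1* (0.949) and *Blcap* (0.945). *Car4* was most like *Cyp4a10* (0.968), *Car5b* like *Tcn2* (0.929), *Slc4a7* like *Ly6e* (0.968) and *Car2* like *Phf21a* (0.897). The 12 points come from the same mice and libraries of unequal depth, and the values are descriptions.

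Between beige and white nuclei of the same mouse, *Kcnk3*, *Slc4a4* and *Otop1* were higher in beige nuclei and *Car3* was lower, in 19 of 19 mice each. This is the contrast that chose these 4 genes, and the clusters were made from the same nuclei, so no test is given. The CPM here and in the rest of the text are on the TMM scale, which sets libraries to a common centre. Library totals cover only the features that passed the filter on low counts. CPM over genes and CPM over single peaks are therefore on different scales. *Kcnk3* had a median of 164 CPM (87.2 to 251) in white and 355 CPM (273 to 574) in beige nuclei, a mean log2 difference of 1.08 ± 0.41 (SD, n = 19). *Slc4a4* had a median of 338 CPM (248 to 429) in white and 646 CPM (464 to 820) in beige nuclei, a difference of 0.99 ± 0.30. *Otop1* had 26.5 CPM (0 to 51.1) and 116 CPM (57.2 to 182), a difference of 2.09 ± 0.86. For *Kcnk3*, *Slc4a4* and *Otop1* in this order, the mean differences were 1.22, 1.35 and 2.68 in 3 day 0 mice. They were 1.31, 1.10 and 2.44 in 9 cold mice and 0.73, 0.71 and 1.39 in 7 CL mice. The white and beige ranges did not overlap for any of these 3 genes. Here and for *Otop1* over the clusters above, the share of all genes without overlap was not counted.

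*Car3* had a median of 465 CPM (338 to 599) in white and 191 CPM (41 to 393) in beige nuclei, a difference of −1.66 ± 1.06 (SD, n = 19), with the widest spread over beige mice of the 4 genes. Of the 4 genes not used as beige or white loci, *Car5b* was lower in beige nuclei of 17 of 19 mice and *Slc4a7* in 14, while *Car4* was higher in 17. *Car2* was higher in 10 mice and lower in 9. Over all 10693 genes tested the median difference was −0.19, 27.9% were above 0, and 2.09% had the same sign in all mice. *Car2* did not pass the filter on low counts in this comparison, and *Car2*, *Car4*, *Car5b* and *Slc4a7* had 105 to 169 entries in all beige nuclei together.

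**Figure D2:**
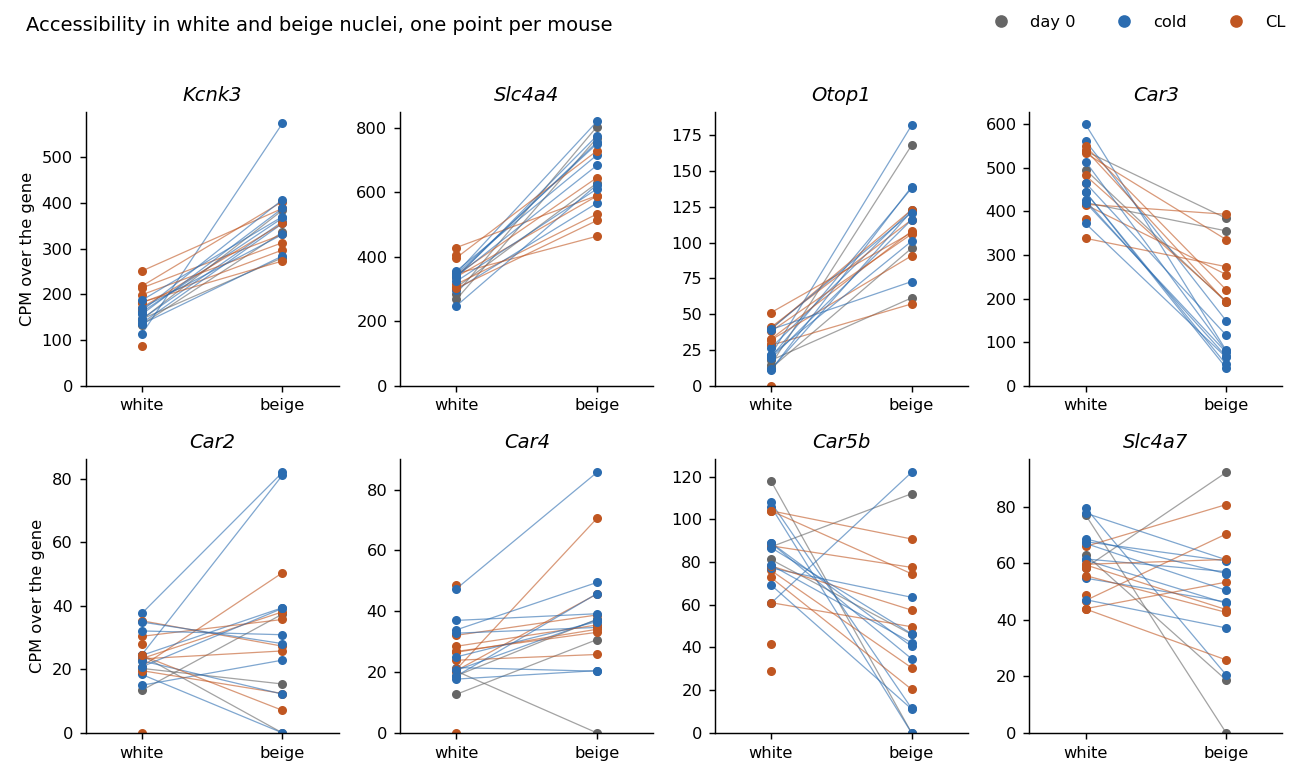
CPM over each gene (y axis) in white and beige nuclei (x axis), with 1 point per mouse, lines joining the 2 values of a mouse, and colours for day 0, cold and CL. *Kcnk3*, *Slc4a4* and *Otop1* rise and *Car3* falls in all 19 mice, and the beige *Car3* values split into cold mice (41 to 149 CPM) and the others (191 to 393 CPM).

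Peak by peak, beige nuclei were higher at peaks all along *Kcnk3* and *Slc4a4*. The peak CPM of white and of beige nuclei, with the limits set on them, are scaled to the 10991 peaks that passed the filter on low counts. They cannot be set against the CPM over whole genes. The log2 differences of single peaks lean to white nuclei: over all 85412 peaks with at least 10 CPM in white or beige nuclei the median was −0.99, 13.4% were higher in beige nuclei, 2.18% by at least 1, and 49.6% were lower by at least 1. Of 11 *Kcnk3* peaks within this limit, 10 were higher in beige nuclei and 4 by at least 1. With at least 10 CPM in white nuclei they were 9 of 10 and 3. Over all 76145 peaks within that second limit, 9.08% were higher in beige nuclei and 0.784% by at least 1. The largest difference was in the upstream peak chr5:30586985-30587559 (25.6 ± 14.9 CPM in white, 85.4 ± 42.4 CPM in beige, log2 difference 1.68), and the peak over the gene start (chr5:30587798-30589330) had 78.6 ± 16.2 and 118 ± 54.3 CPM, higher in 16 of 19 mice, with a mean difference of 0.18 ± 1.61 (SD). The smallest difference, −0.55, was in the intron peak chr5:30621243-30621697. Of all 47 *Slc4a4* peaks, 34 were higher in beige nuclei, 10 of them by at least 1. With at least 10 CPM in white or beige nuclei they were 22 of 31 and 9, a limit that some peaks passed through beige nuclei alone, and with at least 10 CPM in white nuclei 12 of 20 and 5. The intron peak chr5:88927004-88927265, printed among the sequences, had the largest difference, 2.66, from 12.7 ± 24.9 to 54.5 ± 28.7 CPM. The *Slc4a4* peak with the highest mean in beige nuclei, chr5:89032624-89033919, lies in an intron 146453 bases from the gene start and rose from 66.6 ± 13.9 CPM in white to 154 ± 53.5 CPM in beige nuclei in 18 of 19 mice. The peak over the *Slc4a4* start (chr5:88886363-88887561) had 67.6 ± 16.1 and 85 ± 46.1 CPM and differed by 0.22 ± 0.88 (SD), higher in 13 of 19 mice, and the intron peak chr5:88932114-88932353 had the smallest difference, −1.16.

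At *Otop1* all 3 peaks were higher in beige nuclei. Only 1 of them had at least 10 CPM in white nuclei, and the others passed the limit through beige nuclei alone. The peak chr5:38277142-38278685 covers the start of a transcript and a coding exon, and had 52.9 ± 26.5 CPM in white and 187 ± 56.3 CPM in beige nuclei. The intron peak chr5:38301569-38301862 had the largest difference, 2.87, from 3.32 ± 3.94 to 35.6 ± 22.2 CPM, and the intron peak chr5:38285821-38286093 differed by 1.99. At *Car3* all 7 peaks were lower in beige nuclei by at least 1 on the log2 scale, including the peak over the gene start (chr3:14863122-14863893, 172 ± 40.4 CPM in white and 60.1 ± 50.6 CPM in beige). The differences ranged from −1.22 at chr3:14863951-14864809 to −3.19 at chr3:14866843-14867047, both over coding exons.

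At *Car5b*, 4 of 10 peaks reached 10 CPM. The intron peak chrX:164026349-164027595, next to the start, fell from 56.3 ± 20.9 to 11.3 ± 16.6 CPM in 19 of 19 mice, a difference of −3.73, while the peak over the start itself (chrX:164027709-164028472) had 46.5 ± 15.9 and 48 ± 36.9 CPM, with a mean log2 difference of −0.88, 8 mice higher and 11 lower. The peak near the *Slc4a7* start (chr14:14702356-14703913) had 114 ± 16.9 CPM in white and 90.6 ± 39.1 CPM in beige nuclei, the peak over the *Car2* start (chr3:14886003-14887198) had 47.3 ± 17.1 and 59.6 ± 45 CPM, and the *Car4* peak (chr11:84959596-84960368) had 57.1 ± 25.3 and 82.3 ± 39.8 CPM. Only 2 of the *Kcnk3*, 3 of the *Slc4a4*, 1 of the *Otop1* and 5 of the *Car3* peaks, and none of *Car5b* or *Car2*, passed the filter on low counts. This filter was applied to white and beige libraries together, and white libraries alone can satisfy it. Over the 10991 peaks that passed it, the median difference was −0.36 and 11.7% differed by at least 1 either way. In single peaks of few nuclei a mouse at 0 weighs heavily on the log2 scale, so a mean difference can go against the sign of the mean CPM, as at the *Car2* start, where it was −0.41, and at the *Car5b* start.

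**Figure D3:**
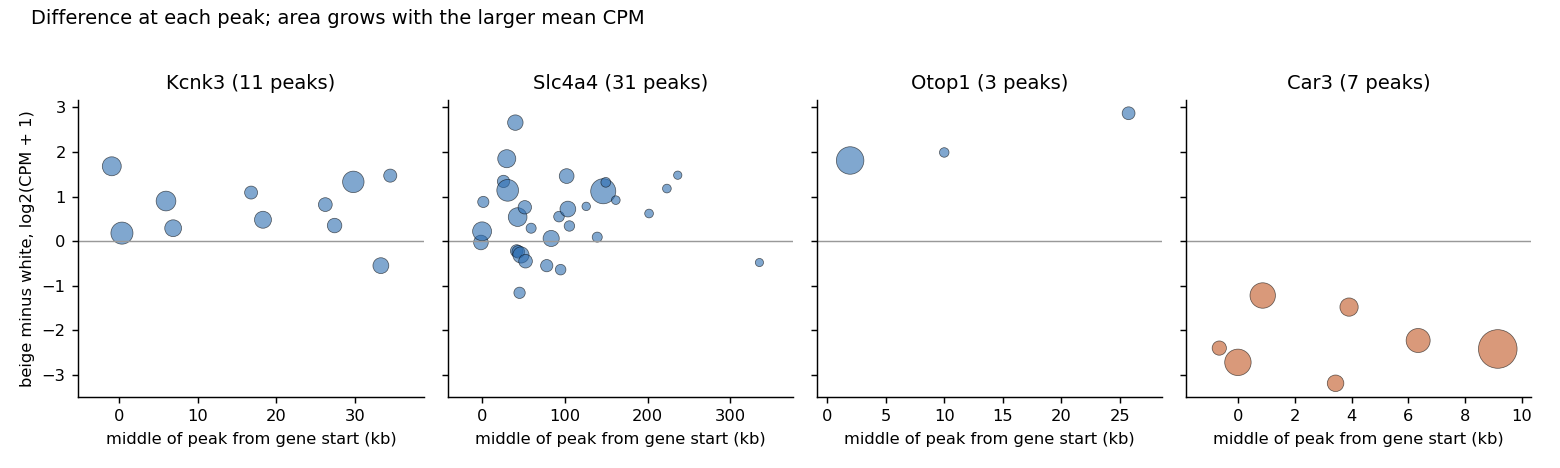
Mean difference between beige and white nuclei on log2(CPM + 1) (y axis) at each peak with at least 10 CPM in white or beige nuclei, against the distance of its middle from the gene start in kb (x axis, positive into the gene), with the point area growing with the larger mean CPM. All 3 *Otop1* peaks lie above 0, though only 1 of them has at least 10 CPM in white nuclei. All 7 *Car3* peaks lie below −1, against a median of −0.99 over all peaks within the same limit.

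The treatments were compared next. The genes were not picked on these contrasts, but beige nuclei were 9.2% ± 2.6 (SD, n = 3) of white and beige nuclei at day 0 and 29.4% ± 3.21 at day 7 of cold, so counts of calls in summed nuclei are not independent of the difference between beige and white nuclei that chose the genes. The values of beige nuclei alone are part of that difference too, so tests in them are not independent of it either. Where groups of mice are said not to overlap, the share of all genes or peaks that do so was not counted. In white and beige nuclei together, edgeR called 7 of 48 tests of the 8 genes against day 0, and all 4 calls under cold were at day 7. There, *Kcnk3*, *Slc4a4* and *Otop1* rose and *Car3* fell, so that 4 of 8 genes passed, where 5.08% of all 14429 genes did. At day 7 of CL, *Otop1* and *Slc4a4* rose (7.81% of all genes passed), and at day 3 of CL *Kcnk3* rose (4.77%). None of the 8 passed at day 1 of cold, day 3 of cold or day 1 of CL, where 0.34%, 1.68% and 2.61% of all genes did. With edgeR and an unadjusted p under 0.05, these 3 comparisons had 0, 2 and 2 of the 8 genes, and DESeq2 called 0 in each, with an adjusted p for only 3 of the 8 genes. The median log2 change of the 8 genes was 0.46 at day 7 of cold and 0.36 at day 7 of CL, beside −0.01 over all genes in both.

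*Otop1* had the largest changes. Its CPM at day 0 were 22.6, 17.9 and 23.4, at day 7 of cold 65.5, 45.4 and 42.3, and at day 7 of CL 56.4, 45.5 and 56.1. All 6 mice at day 7 were above the 3 at day 0, with log2 changes of 1.18 ± 0.25 (SE, adjusted p = 0.00127) under cold and 1.28 ± 0.24 (adjusted p = 1.3e-04) under CL. DESeq2 gave no adjusted p for *Otop1* against day 0 at day 7. The 3 day 0 libraries held 489134, 284740 and 865503 entries over genes, so the *Otop1* values at day 0 rest on few entries. In white nuclei alone, with 418842, 268641 and 808736 entries, they rest on fewer still.

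*Kcnk3* had 168, 143 and 145 CPM at day 0, 215, 222 and 210 CPM at day 7 of cold, and 260, 211 and 212 CPM at day 3 of CL, again without overlap with day 0. Its changes were 0.50 ± 0.13 (SE, adjusted p = 0.0106) and 0.53 ± 0.13 (adjusted p = 0.00479). Without day 0 mouse 3 these became 0.43 (adjusted p = 0.131) and 0.45 (adjusted p = 0.104). At day 7 of CL the change was 0.32 ± 0.13 (adjusted p = 0.104). With peaks within 2000 bases of the gene start alone, the *Kcnk3* change at day 7 of cold was 0.20 (adjusted p = 0.756) and that at day 3 of CL 0.47 (adjusted p = 0.185).

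*Slc4a4* had 331, 294 and 300 CPM at day 0, 438, 430 and 381 CPM at day 7 of cold, and 421, 351 and 447 CPM at day 7 of CL, with no overlap. The changes were 0.42 ± 0.11 (SE, adjusted p = 0.0148) and 0.40 ± 0.11 (adjusted p = 0.0178). Both calls were lost without day 0 mouse 2 or 3, the former also without day 7 cold mouse 1 or 2, and the latter also without day 7 CL mouse 1 or 3. The changes were then 0.38 to 0.40 (adjusted p = 0.0564 to 0.113) and 0.34 to 0.37 (adjusted p = 0.0572 to 0.163). With peaks near the *Slc4a4* start alone the changes were 0.25 (adjusted p = 0.669) and 0.41 (adjusted p = 0.299), and DESeq2 gave 0.40 (adjusted p = 0.0677) at day 7 of CL.

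*Car3* had 487, 452 and 389 CPM at day 0 and 238, 297 and 351 CPM at day 7 of cold, a change of −0.55 ± 0.13 (SE, adjusted p = 0.00245), and −0.41 (adjusted p = 0.0709) without day 7 cold mouse 1. With peaks near the *Car3* start alone it was −0.49 (adjusted p = 0.126). At day 7 of CL the values were 298, 461 and 426 CPM, which overlap with day 0, and the change was −0.19 ± 0.12 (adjusted p = 0.366). *Car2* and *Car4* had changes of 0.77 ± 0.32 (adjusted p = 0.152) and 0.88 ± 0.32 (adjusted p = 0.0906) at day 7 of cold, *Car5b* of −0.47 ± 0.17 (adjusted p = 0.0937) and *Slc4a7* of −0.16 ± 0.19 (adjusted p = 0.707).

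The make-up of these nuclei moved with the treatments. The share of beige nuclei was 12.8% ± 7.07 (SD, n = 3) at day 3 of CL and 20% ± 4.84 at day 7 of CL. Between day 0 and day 7 of cold, without overlap, the summed adipocyte markers went from 1633 to 1886 CPM to 1410 to 1580 CPM, the T cell markers from 45.7 to 76 CPM to 25.1 to 40.7 CPM, and the B cell markers from 115 to 144 CPM to 86.2 to 98.1 CPM. At day 3 of CL the adipocyte sum (1463 to 1599 CPM) and the T cell sum (34.8 to 44.8 CPM) were also below day 0 without overlap. At day 7 of CL all 3 sums overlapped with day 0, and their part in the results was not tested. In these summed nuclei, more beige nuclei and more open chromatin per nucleus cannot be told apart, so the same comparisons were made in white nuclei alone. There, none of the 8 genes passed in edgeR at day 7 of cold (1.87% of all 13508 genes did, and 3 of the 8 had an unadjusted p under 0.05): *Car3* changed by −0.12 ± 0.13 (SE, adjusted p = 0.737), *Kcnk3* by 0.22 ± 0.15 (adjusted p = 0.519), *Slc4a4* by 0.21 ± 0.13 (adjusted p = 0.454) and *Otop1* by 1.03 ± 0.36 (adjusted p = 0.136). The calls under CL were also made in white nuclei alone, with *Otop1* at day 3 in addition. *Kcnk3* rose by 0.62 ± 0.13 (adjusted p = 0.00129) and *Otop1* by 1.11 ± 0.32 (adjusted p = 0.0265) at day 3 (4.37% of all genes passed), and *Otop1* by 1.58 ± 0.30 (adjusted p = 3.1e-04) and *Slc4a4* by 0.43 ± 0.12 (adjusted p = 0.0173) at day 7 (6.74%).

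**Figure D4:**
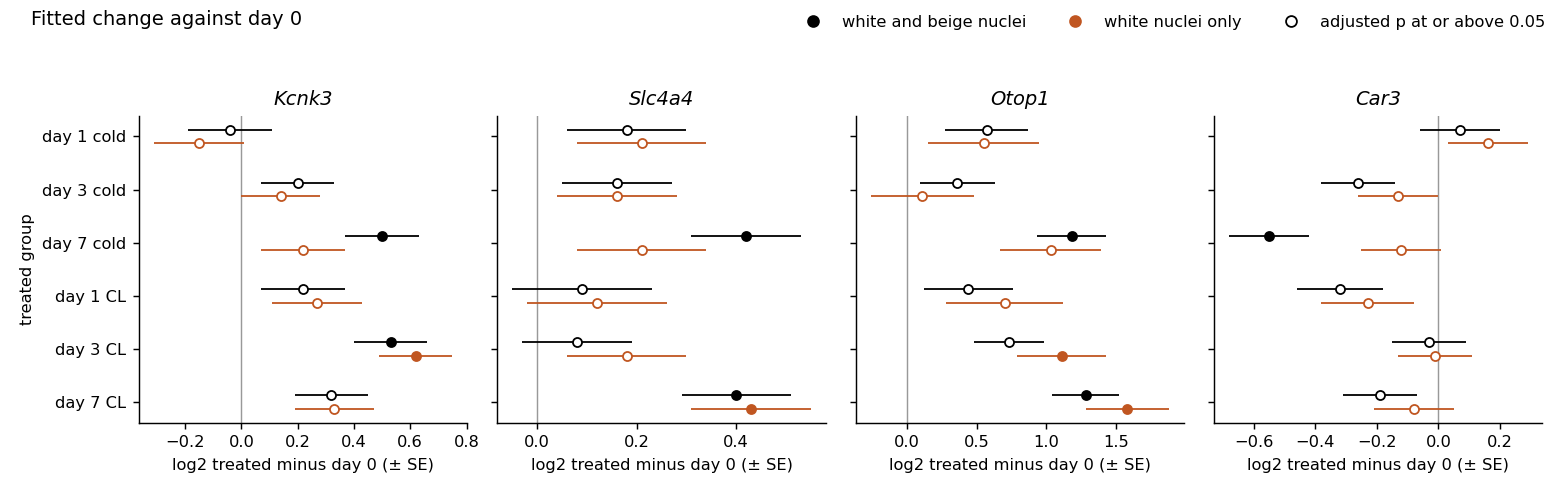
Fitted log2 change against day 0 (x axis, points, with bars of 1 SE) in each treated group (y axis) for 4 genes, in white and beige nuclei together (black) and in white nuclei alone (orange), with open points at an adjusted p of 0.05 or more. The day 7 cold changes of *Kcnk3*, *Slc4a4* and *Car3* lie nearer 0 in white nuclei alone, and the CL changes of *Otop1* do not.

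The 2 treatments were also set against each other on the same day. In white and beige nuclei together, *Car5b* at day 3 was the only call among 24 tests, with 80.6, 94.8 and 95.9 CPM under CL and 69.5, 63.8 and 77.3 CPM under cold (0.41 ± 0.12 SE, adjusted p = 0.0408, where 1.46% of all genes passed). Without the 3 mice with few lymphocytes the difference was 0.37 (adjusted p = 0.591). The call was lost under 15 of 29 other settings, at changes of 0.37 to 0.46, among them each of 10 mice left out in turn (adjusted p = 0.0502 to 0.358). These were day 3 CL mice 2 and 3, all 3 day 3 cold mice, day 0 mice 2 and 3, day 1 cold mice 2 and 3, and day 7 cold mouse 2. None of the 8 genes passed at day 1 (0.922% of all genes) or day 7 (0.111%), where edgeR gave 3 and 1 genes an unadjusted p under 0.05 and DESeq2 called 0, with no adjusted p for 4 of the 8 genes at day 1.

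In white nuclei alone, *Kcnk3* and *Otop1* were higher at day 3 of CL than at day 3 of cold. *Kcnk3* ranged from 214 to 251 CPM in the 3 CL mice and from 146 to 164 CPM in the 3 cold mice (0.48 ± 0.11 SE, adjusted p = 0.00474). *Otop1* ranged from 32 to 40.9 CPM and from 10.9 to 19.1 CPM (1.00 ± 0.22, adjusted p = 0.0035). Neither gene overlapped between the treatments, and 1.92% of all genes passed in this comparison. One mouse of each of these groups is among the 3 with few lymphocytes. White nuclei alone were not fitted without these mice or with each mouse left out, so how far the calls rest on them was not tested.

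In beige nuclei alone, *Car3* separated cold from CL. Its CPM at day 0 were 384, 192 and 355. Under cold they were 149, 81.1 and 41 at day 1, 76.7, 49 and 116 at day 3, and 65, 67.2 and 78.8 at day 7. Under CL they were 255 in the mouse of day 1, 194, 335 and 393 at day 3, and 273, 220 and 191 at day 7. All 9 cold mice, at 41 to 149 CPM, were below all 3 day 0 mice and all 7 CL mice, at 191 to 393 CPM, from the first day on. The number of entries behind these values was 2 to 138 per mouse. It was 25, 4 and 19 in the day 0 mice and 13, 4 and 2 at day 1 of cold. Single days were not tested in beige nuclei.

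The mean of the cold days was lower than day 0 by a log2 difference of −2.05 ± 0.29 (SE, adjusted p = 2.1e-08), where 0.367% of the 7353 genes tested passed. With peaks near the gene start alone it was −1.57 (adjusted p = 0.182). The mean of the CL days differed from day 0 by −0.34 ± 0.24 (adjusted p = 0.668, where 0.0952% passed). The difference between the treatments, tested after these 2 contrasts had been seen, was 1.71 ± 0.16 higher under CL (adjusted p = 2.4e-21, where 2.77% passed), and 1.58 to 1.97 under 26 other settings, with the largest adjusted p at 7.9e-09. In white nuclei *Car3* had no such split, with 471 ± 72.9 CPM (SD, n = 9) under cold, 458 ± 75 CPM (SD, n = 9) under CL and 484 ± 60.1 CPM (SD, n = 3) at day 0. The beige minus white log2 difference that chose *Car3* uses the same beige values. It was −2.62 ± 0.49 (SD, n = 9) in cold mice, −0.70 ± 0.59 (n = 3) at day 0 and −0.84 ± 0.55 (n = 7) in CL mice. The *Car3* tests in beige nuclei are thus not independent of that choice.

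**Figure D5:**
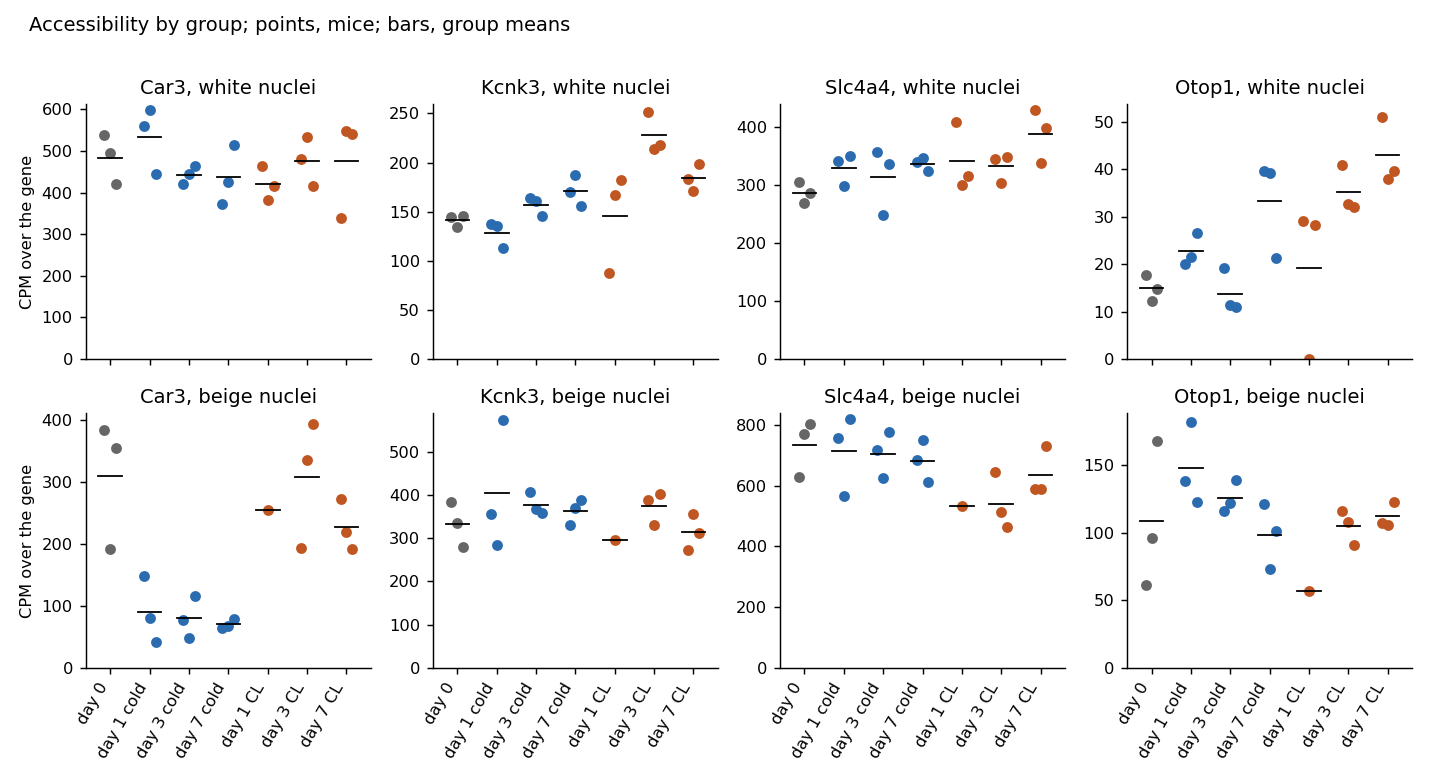
CPM over *Car3*, *Kcnk3*, *Slc4a4* and *Otop1* (y axes) by group (x axis) in white nuclei (upper row) and beige nuclei (lower row), with 1 point per mouse and bars at group means. *Car3* in beige nuclei is at 41 to 149 CPM in all 9 cold mice and at 191 CPM or more in the others, and in white nuclei the groups overlap.

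The other 4 genes tested in beige nuclei did not pass against day 0 under either treatment. Of the 5 genes, 1 under cold (*Car3*) and 1 under CL (*Slc4a4*) had an unadjusted p under 0.05 in edgeR, and DESeq2 called 1 and 0, with no adjusted p for 2 and 1 genes. *Kcnk3* changed by 0.18 ± 0.23 (SE, adjusted p = 0.854) under cold and −0.09 ± 0.24 (adjusted p = 0.94) under CL, and *Otop1* by 0.17 ± 0.38 (adjusted p = 0.928) and −0.31 ± 0.41 (adjusted p = 0.861). Between the treatments, *Slc4a4* was lower under CL, with 464 to 729 CPM in 7 mice against 567 to 820 CPM in 9 cold mice (−0.32 ± 0.10 SE, adjusted p = 0.0376). This call was lost with the same sign under 14 of 26 other settings. With peaks near the gene start alone it was also lost, and the value reversed to 0.13 (adjusted p = 0.95). It was lost without day 0 mouse 1, day 1 cold mouse 1 or 3, day 3 cold mouse 1 or 3, day 7 cold mouse 2, day 3 CL mouse 2 or 3, or day 7 CL mouse 1 or 2, at −0.32 to −0.28 (adjusted p = 0.0518 to 0.151). *Kcnk3* (−0.26 ± 0.12, adjusted p = 0.228) and *Otop1* (−0.48 ± 0.19, adjusted p = 0.166) had lower fitted values under CL and did not pass. *Car2*, *Car4* and *Slc4a7* did not pass the filter on low counts in beige nuclei.

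The beige markers moved with this contrast. Their summed level in beige nuclei was 1169 to 1374 CPM in the 9 cold mice, 896 to 1214 CPM in the 7 CL mice and 721 to 1383 CPM at day 0. Between CL and cold, *Ucp1*, the uncoupling protein of brown fat mitochondria, was lower under CL by −1.23 ± 0.27 (SE, adjusted p = 0.00118) and *Dio2*, which activates thyroid hormone, by −0.92 ± 0.22 (adjusted p = 0.00311). *Cidea* (−0.54, adjusted p = 0.0755), *Ppargc1a* (−0.33, adjusted p = 0.295) and *Prdm16* (−0.14, adjusted p = 0.509) did not pass. The adipocyte markers summed to 1531 to 2087 CPM under cold and 1429 to 1860 CPM under CL. The skeletal muscle markers, which are open in the other cluster with high *Car3*, summed to 57.3 to 144 CPM under cold and 64.6 to 135 CPM under CL in beige nuclei. The part of these levels in the *Car3* result was not tested.

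All 7 *Car3* peaks had a lower mean in beige nuclei of cold than of CL mice. The peak over the gene start was at 23.8 CPM on average under cold (0 to 62 in 9 mice) and 112 CPM under CL (80.2 to 160 in 7 mice), without overlap. The 3′ peak chr3:14871355-14873958, the widest, was at 40.3 CPM (0 to 105) and 193 CPM (101 to 385). The printed intron peak was at 18.7 CPM (0 to 42.1) and 47.3 CPM (21.4 to 94), and overlapped. Day 0 means were 47 CPM at the start peak and 133 CPM at the 3′ peak, between cold and CL. They were 68.3 CPM at the printed intron peak and 80.7 CPM at the upstream peak, above both treatments. The upstream peak was at 5.18 CPM under cold and 23.4 CPM under CL. Single peaks thus did not all repeat the order of the group means over the whole gene. At *Kcnk3*, the mean of the printed peak chr5:30617605-30618335 was higher under cold, at 153 CPM (113 to 210) against 79.9 CPM (28.8 to 162), while the peak over the start was at 115 CPM (40.1 to 252) and 144 CPM (109 to 187). The main *Otop1* peak was at 204 CPM (86.8 to 281) and 171 CPM (120 to 201). These peak values are descriptions with no test.

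In single peaks of white and beige nuclei together, 40 of the 87 peaks could be tested against day 0, and 6 peaks gave 7 calls. Their CPM are scaled to the 47835 peaks tested, so they cannot be set against the peak CPM of white or beige nuclei above. At day 7 of cold (3.13% of all 47835 peaks passed), the *Car3* peak over the start went from 93.6, 76.2 and 84 CPM to 37.2, 59.8 and 61.6 CPM (−0.68 ± 0.19 SE, adjusted p = 0.0197). The 3′ *Car3* peak went from 171, 168 and 145 CPM to 81.4, 108 and 125 CPM (−0.57 ± 0.15, adjusted p = 0.0123). The *Otop1* peak over the transcript start went from 20.5, 19.1 and 23.8 CPM to 58.1, 33.9 and 37.7 CPM (0.98 ± 0.27, adjusted p = 0.0219), and at day 7 of CL (4.19%) to 49.5, 44.2 and 49.5 CPM (1.13 ± 0.25, adjusted p = 0.00192). None of these groups overlapped with day 0.

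At day 7 of CL, the *Car5b* intron peak next to the start, printed above, fell from 27.4, 53.4 and 28.8 CPM to 16.6, 12.5 and 9.89 CPM (−1.15 ± 0.29, adjusted p = 0.00748). The *Slc4a4* intron peak chr5:88981267-88982341 rose from 4.56, 0 and 3.76 CPM to 15.2, 9.07 and 11.5 CPM (1.93 ± 0.60, adjusted p = 0.0406). At day 3 of CL (3.46%), the *Slc4a4* intron peak chr5:88929611-88930212 fell from 36.5, 34.3 and 28.8 CPM to 28.6, 11.8 and 20.9 CPM (−0.95 ± 0.28, adjusted p = 0.03), and without the 3 mice with few lymphocytes it changed by −0.50 (adjusted p = 0.5). No peak passed at day 1 of cold (0.213%), day 3 of cold (1.28%) or day 1 of CL (2.06%), where edgeR gave 4, 7 and 4 of 40 peaks an unadjusted p under 0.05. DESeq2 called none of the 40 peaks in any of the 6 comparisons, and gave no adjusted p to 0 to 13 of them. In white nuclei alone, the *Car3* peaks over the start and at the 3′ end changed by −0.31 and −0.07 at day 7 of cold, and neither passed. The *Otop1* peak at day 7 of cold (1.00, edgeR adjusted p = 0.191) and the *Slc4a4* peak that fell (−0.87, adjusted p = 0.0865) did not pass there either. At day 7 of CL, the *Otop1* peak (1.49, adjusted p = 0.00115) and the *Car5b* peak (−0.99, adjusted p = 0.0339) did.

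Each of these 7 peak calls was also lost without at least 1 mouse. These were day 0 mouse 1, 2 or 3 or day 7 cold mouse 1 for the *Otop1* peak under cold (0.72 to 1.12, adjusted p = 0.0712 to 0.246), and day 7 CL mouse 1 for it under CL (1.07, adjusted p = 0.0595). For the *Car3* peaks they were day 0 mouse 1 or day 7 cold mouse 1, and for the one over the start also day 0 mouse 3 (−0.70 to −0.41 over both peaks, adjusted p = 0.0913 to 0.245). For *Car5b* it was day 0 mouse 2 (−0.96, adjusted p = 0.092). For the 2 *Slc4a4* peaks it was any day 0 mouse, and for the one that fell also day 3 CL mouse 2 (1.65 to 2.17 for the former with adjusted p = 0.0774 to 0.184, and −1.11 to −0.51 for the latter with adjusted p = 0.0777 to 0.504).

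Other genes of the 6 families were tested in the same way. Of 55 family genes outside the 8, 41 could be tested in white and beige nuclei, and 4 passed in at least 1 of 9 comparisons, where 13% of all 14429 genes did. The tested genes were 9 carbonic anhydrases, 8 K2P potassium channels, 7 SLC4 bicarbonate transporters, 8 SLC26 anion exchangers, 8 SLC9 sodium-proton exchangers and 1 proton channel, and those that passed were 2 carbonic anhydrases, 1 SLC26 gene and the proton channel. *Car14*, a carbonic anhydrase of the cell surface, rose at day 7 of cold (1.21 ± 0.26 SE, adjusted p = 0.00125), day 3 of CL (0.99 ± 0.25, adjusted p = 0.00891) and day 7 of CL (0.92 ± 0.26, adjusted p = 0.0144). *Car1*, a cytosolic carbonic anhydrase, rose at day 3 of CL (0.46 ± 0.14, adjusted p = 0.0321), and *Slc26a9*, a chloride channel of its family, was higher at day 3 of CL than of cold (0.71 ± 0.18, adjusted p = 0.0218).

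*Hvcn1*, a proton channel known from immune cells, fell at day 1 of CL (−1.23 ± 0.21, adjusted p = 6.3e-05), day 7 of cold (−0.72 ± 0.16, adjusted p = 0.00261) and day 7 of CL (−0.52 ± 0.15, adjusted p = 0.0208). It was also lower at day 1 of CL than of cold (−1.04 ± 0.21, adjusted p = 0.0023). Of the white and beige nuclei at day 1 of CL, 654 came from mouse 3, which is among the mice with few lymphocytes. Mice 1 and 2 gave 29 and 68. Over the 3 B cell markers with values in white and beige nuclei, the sum was 115 to 144 CPM at day 0, 68.1 to 74.7 CPM at day 1 of CL, 86.2 to 98.1 CPM at day 7 of cold and 117 to 134 CPM at day 7 of CL. The part of B cell signal in the *Hvcn1* values was not tested. DESeq2 called 2 of these 9 family results, both of *Hvcn1*. Without the 3 mice with few lymphocytes, edgeR made 4 calls in 2 of 40 family genes tested, beside 9 calls in 4 genes with all mice. Not all of the 4 genes named above thus kept a call. White nuclei alone gave 6 calls in 4 of 36 family genes tested, and the share of all genes over these comparisons together was not counted. In white nuclei alone, 1.87% of all genes passed at day 7 of cold, 4.37% at day 3 of CL and 6.74% at day 7 of CL. Between CL and cold at day 3, 1.92% passed. In beige nuclei alone, 18 family genes could be tested and 0 passed, where 0.0952% to 2.77% of all genes did.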

How the data were processed

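Nuclei of 21 mice were profiled by combinatorial-indexing single-nucleus ATAC-seq. The authors aligned reads to mm10 with Bowtie2, called peaks with MACS2 and deposited counts for 189598 peaks in 32552 nuclei, with a table that names the mouse, treatment and cluster of every nucleus. These counts are binary, so a sum over nuclei says how many had a read in the peak, and depth per nucleus bounds it. The deposited samples are sequencing lanes that pool all groups, and groups were therefore taken from the metadata.

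Peaks were given to a gene by overlap with its body or the 2000 bases upstream (GENCODE vM21) and summed per mouse and cluster, with at least 10 nuclei per library. Sums were tested in edgeR 4.0.16 (R 4.3.3) by the quasi-likelihood test with TMM scaling and filterByExpr (minimum count 10), two-sided, with Benjamini-Hochberg adjustment over all features tested and a threshold of 0.05. The scripts were tested on simulated data. DESeq2 1.42.0, other filters, peaks near the start, deeper nuclei, white nuclei alone and each mouse left out were the alternatives. Leaving out the 3 mice with few lymphocytes and the test of CL against cold in beige nuclei were added after seeing the data. P-values weigh a difference between groups against the spread between mice within groups, estimated over all groups of a fit and moderated across features. The share of beige nuclei and the depth of libraries differ between groups, which the values of summed nuclei carry.

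The genes and family lists were chosen with earlier results of these data known. The text names all 8 genes, each of their peaks that passed, and each family gene that passed. Temperatures are those of the labels, while the methods give 6 °C.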

Additional observations from a re-analysis of the deposited data

Results flagged for a closer look

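*Car3* in beige nuclei differed between CL and cold by 1.71 on the log2 scale (SE 0.16, edgeR adjusted p = 2.4e-21), with all 7 CL mice above all 9 cold mice. The difference was tested directly, in the fit of beige nuclei, whose values are part of the contrast that chose *Car3*. At the same time *Ucp1* differed by −1.23 and *Dio2* by −0.92, and day 1 of CL had a single beige library.

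*Slc4a4* in beige nuclei differed between CL and cold by −0.32 (SE 0.10, adjusted p = 0.0376), with overlapping mice, and *Car5b* in white and beige nuclei differed between day 3 of CL and day 3 of cold by 0.41 (SE 0.12, adjusted p = 0.0408), without overlap. Both calls were lost in at least 10 of the settings that leave out 1 mouse each.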

How the results depend on the processing

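The numbers here count all calls under a setting, which need not be the same calls. The 7 calls of the 8 genes against day 0 became 4 with DESeq2, 2 with peaks near the gene start alone, 4 in white nuclei alone and 3 to 7 with each mouse left out. The calls in white nuclei include *Otop1* at day 3 of CL, which had not passed in white and beige nuclei together. The single call between CL and cold on the same day was of *Car5b*. There were 0 calls with DESeq2, 0 with nuclei of at least 2000 entries and 0 without the 3 mice with few lymphocytes. With each mouse left out there were 0 to 2. White nuclei alone gave 2 calls, of *Kcnk3* and *Otop1*, while *Car5b* did not pass there (0.41, adjusted p = 0.0597). In beige nuclei the single call against day 0 became 0 with peaks near the start and stayed at 1 with each mouse left out, and the 2 calls between CL and cold became 1 with DESeq2, with no filter on low counts, with peaks near the start, with nuclei of at least 2000 entries and with at least 30 nuclei per library, and 1 to 2 with each mouse left out. *Slc4a4* in this comparison reversed to 0.13 with peaks near the start. The 7 calls of single peaks became 2 without the filter on low counts, 0 with DESeq2, 4 in white nuclei alone and 3 to 7 with each mouse left out. Without filters, more features are tested. With DESeq2, *Otop1* had no adjusted p against day 0 at day 7, and *Slc4a4* at day 7 of CL did not pass (adjusted p = 0.0677). For the other changes the cause was not tested.

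Between beige and white nuclei, the *Slc4a4* difference was 0.37 with peaks near the start. With the mouse number as a replicate block there were 8 calls of genes against day 0, and the calls of the *Slc4a4* peaks at day 3 and day 7 of CL were lost, at −0.77 (adjusted p = 0.109) and 1.93 (adjusted p = 0.0583). The study was run in 3 batches, but no source used here ties a mouse number to a batch. Deviations of same-numbered mice from their group means had a median correlation of −0.00102 (−0.113 to 0.148) over 63 pairs, and the numbers were not taken as pairs. Few beige nuclei per mouse limit the beige comparisons: a minimum of 30 nuclei leaves no day 0 library, and values against day 0 could not be fitted there, nor CL in beige nuclei without the 3 mice with few lymphocytes or without day 1 CL mouse 3.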
